A study of Mus musculus with 8 samples.

Results

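The endoplasmic reticulum (ER) chaperones and the unfolded protein response (UPR) were followed through 33 mouse genes, listed by name, out of 55401 genes in each expression table. The list held BiP and 7 genes grouped with it, GRP94, 3 lectin chaperone or glycoprotein checkpoint genes and 6 folding enzymes and their partners. It also held 3 translocon genes, 8 genes of ER-associated degradation (ERAD) and 4 genes of UPR signalling. All 33 were matched to 1 gene each, and all 33 passed the filter on low counts, which kept 13908 genes.

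The libraries came from whole liver of C57BL/6J mice. Hepatocytes had received, through an adeno-associated virus, either a short hairpin RNA against Tbl1xr1 (shTbl1xr1, 4 libraries) or a control hairpin (shNC, 4 libraries). After 4 weeks part of the liver was cut away (2/3 hepatectomy), and the regrowing liver was sampled on day 2. The control mice therefore carried a virus and had the operation too, and the promoter that drives the hairpins is not given in the sources used here.

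The ER is where hepatocytes fold and glycosylate the plasma proteins they secrete, such as albumin and clotting factors. BiP, an Hsp70 chaperone of the ER lumen, holds unfolded chains and also keeps the UPR sensors IRE1 alpha, PERK and ATF6 inactive. When unfolded protein draws BiP away, IRE1 alpha splices the Xbp1 mRNA, ATF6 is cut to release a transcription factor, and PERK slows translation. The transcription factors XBP1 and ATF6 then raise transcription of chaperone, folding enzyme and ERAD genes. Tbl1xr1 encodes a subunit of the NCoR and SMRT corepressor complexes.

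Library totals were 10895508, 10728583, 26976205 and 36720879 expected counts in shTbl1xr1 1 to 4, against 25811763 to 27537235 in the 4 shNC libraries. The shTbl1xr1 1 and 2 libraries, called the shallow pair here beside the deeper pair shTbl1xr1 3 and 4, also had 11.3% and 14.8% of counts on mitochondrially encoded genes, against 4.52% to 7.34% in the other 6 libraries. Tbl1xr1 itself stood at 2.38, 2.07, 9.24 and 15.9 CPM (counts scaled by TMM-adjusted library size) in shTbl1xr1 1 to 4, which are 7.24%, 6.31%, 28.1% and 48.5% of the shNC mean, and at 27.2 to 35.9 CPM in shNC. The groups did not overlap (log2 fold change -2.07, SE 0.54; adjusted p = 0.290 by edgeR's quasi-likelihood test; two-sided exact permutation p = 0.0286, the smallest that 4 libraries against 4 can give). The libraries with the least Tbl1xr1 are thus also the shallow ones, so an order by knockdown and an order by depth cannot be told apart, and the main counts below are also given without the shallow pair. Whether each library is a separate animal is not stated in the labels, and the tests reach no further than the variation among these 8 libraries.

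The comparison asks how ER folding genes stand when hepatocytes of a regrowing liver carry the Tbl1xr1 hairpin. Transcripts of the chaperones BiP (Hspa5), GRP94 (Hsp90b1) and GRP170 (Hyou1) and of both core subunits of the ERAD ligase (Syvn1 and Sel1l) were lower in each of the 4 shTbl1xr1 libraries than in any of the 4 shNC libraries on the TMM-normalised scale, with log2 fold changes from -0.74 to -0.51. Calreticulin, calnexin, protein disulfide isomerase, Xbp1 and the sensor genes had overlapping groups.

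No member passed the adjusted threshold of 0.05 in edgeR's quasi-likelihood test, where the smallest adjusted p among the 33 was 0.290. Over all 13908 genes tested that threshold called 6 genes higher (0.0431%) and 1 lower (0.00719%) in shTbl1xr1. At an unadjusted p under 0.05, 0 members were higher and 6 were lower, which is 18.2% of the list beside 7.9% of all genes higher and 3.71% lower. The 6 were Hsp90b1, Syvn1, Hyou1, Hspa5, Sel1l and Pdia4. In 5 of them, all but Pdia4, every shTbl1xr1 library was below every shNC library, which is 15.2% of the list beside 3.37% of all genes, and no member was higher without overlap, beside 3.88% of all genes. The log2 fold changes (shTbl1xr1 over shNC) ran from -0.75 to 0.52, 12 above 0 and 21 below, with a median of -0.08 beside 0.01 over all genes tested. DESeq2, run as an alternative, called 1 member lower after adjustment, Hsp90b1, beside 0.331% of all genes. In whole liver, fewer cells of a type and less RNA per cell cannot be told apart.

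**Figure D1:**
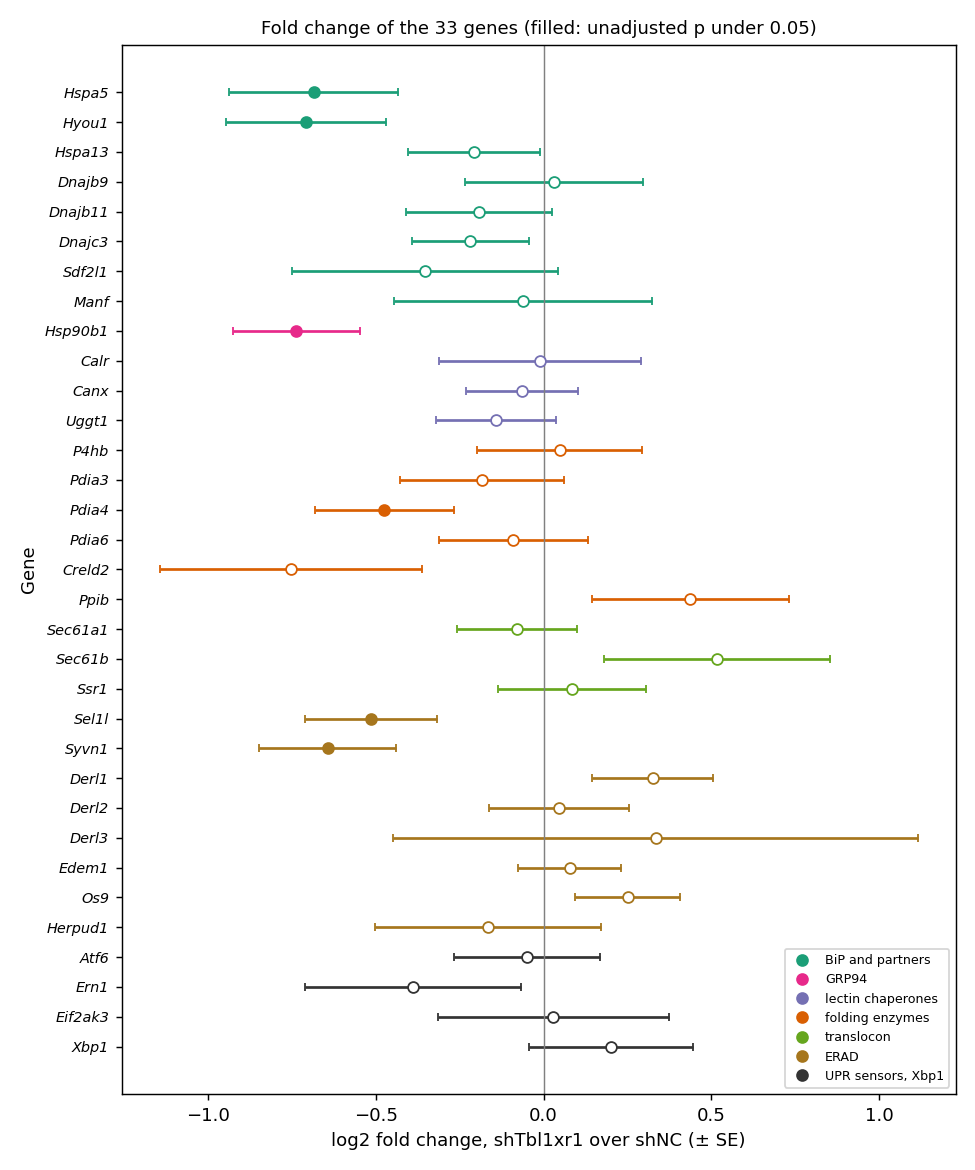
Log2 fold change, shTbl1xr1 over shNC, with its standard error for the 33 genes, ordered by role on the vertical axis; filled points have an unadjusted p under 0.05 in edgeR's quasi-likelihood test. The 6 filled points lie between -0.74 and -0.47, and none passed adjustment over all genes.

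Many of these genes are known to carry in their promoters a short sequence, the ER stress response element (ERSE), through which ATF6 and XBP1 raise transcription. RefSeq promoter windows, 250 bases before to 50 after a start site in GRCm38.p6, were at hand for 27 of the 33 genes (not Hyou1, Manf, Hspa13, Sec61a1, Derl1 and Atf6). The letters searched on both strands were CCAAT, 9 free bases and CCACG for ERSE, ATTGG, 1 free base and CCACG for ERSE-II, and TGACGTGG for the UPR element bound by XBP1. An ERSE match was in 9 of the 27 (33.3%), beside 0.119% of all 32851 promoter windows. An ERSE-II match was in 2 of 27 (7.41%), beside 0.0365%, and the UPR element in 0 of 27, beside 0.676%. The matched stretches of 6 genes on which the results below turn are shown 5′ to 3′ on the strand that carries the motif, with its fixed letters in capitals and its distance before the RefSeq start.
Hspa5, 65 to 47 bases before the start, chr2:34772025-34772043, plus strand: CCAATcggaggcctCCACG
Hsp90b1, distal copy, 212 to 194 bases before the start, chr10:86705638-86705656, minus strand: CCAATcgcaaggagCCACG
Hsp90b1, proximal copy, 107 to 89 bases before the start, chr10:86705533-86705551, plus strand: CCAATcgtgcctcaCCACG
Syvn1, 44 to 26 bases before the start, chr19:6046532-6046550, plus strand: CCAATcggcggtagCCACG
Calr, 162 to 144 bases before the start, chr8:84847075-84847093, plus strand: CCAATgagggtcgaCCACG
Creld2, 126 to 108 bases before the start, chr15:88819520-88819538, minus strand: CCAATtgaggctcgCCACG
Herpud1, the ERSE-II form, 52 to 42 bases before the start, chr8:94386377-94386387, plus strand: ATTGGgCCACG
Hsp90b1 was the one gene with an ERSE match at 2 places. The other matches were ERSE in Canx, Pdia6, Dnajc3 and Derl3 and ERSE-II in Dnajb11, and no gene had both forms.

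The stretch before the start is shown in full for Hspa5, whose match is near the start, and for Syvn1, whose match is nearer still, with motif letters in capitals and the gene's own strand read 5′ to 3′.
Hspa5, chr2:34771840-34772089, plus strand: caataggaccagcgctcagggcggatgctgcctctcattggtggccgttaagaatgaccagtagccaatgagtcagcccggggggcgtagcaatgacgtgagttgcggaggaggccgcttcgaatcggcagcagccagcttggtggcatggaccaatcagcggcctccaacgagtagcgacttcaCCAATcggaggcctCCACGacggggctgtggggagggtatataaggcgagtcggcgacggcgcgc
Syvn1, chr19:6046326-6046575, plus strand: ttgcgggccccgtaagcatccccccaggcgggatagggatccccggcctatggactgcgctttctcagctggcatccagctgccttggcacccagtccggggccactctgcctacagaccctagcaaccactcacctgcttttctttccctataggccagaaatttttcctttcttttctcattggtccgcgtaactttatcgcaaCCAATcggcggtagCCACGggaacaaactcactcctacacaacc
For Hspa5 the GENCODE gene span begins further upstream than the RefSeq start, inside this stretch.

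BiP is encoded by Hspa5 (ENSMUSG00000026864.13; mm10 chromosome 2, 34771970 to 34777547, plus strand). It had 718, 705, 922 and 436 CPM in shTbl1xr1 1 to 4, against 1136, 1095, 1253 and 989 CPM in shNC 1 to 4. Every shTbl1xr1 library was below the lowest shNC library, with shTbl1xr1 3 closest to it and shTbl1xr1 4 lowest. The means were 695 ± 199 CPM in shTbl1xr1 and 1118 ± 109 CPM in shNC (SD, n = 4 each), and the log2 fold change was -0.69 (SE 0.25, adjusted p = 0.399).

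GRP94, the Hsp90 chaperone of the ER lumen, is encoded by Hsp90b1 (ENSMUSG00000020048.13; chromosome 10, 86690209 to 86705509, minus strand) and had the smallest p of the list. It was at 557, 684, 564 and 524 CPM in shTbl1xr1 1 to 4, against 911, 1042, 1054 and 874 CPM in shNC 1 to 4. The groups were well apart, and on the CPM scale the 4 shTbl1xr1 libraries lay close together. The means of 582 ± 69.9 CPM in shTbl1xr1 and 970 ± 91.3 CPM in shNC (SD, n = 4 each) differed by -0.74 on the log2 scale (SE 0.19, adjusted p = 0.290 by edgeR). DESeq2 gave -0.72 (SE 0.15) with an adjusted p of 0.000471.

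Hyou1 (ENSMUSG00000032115.14; chromosome 9, 44379490 to 44392369, plus strand) encodes GRP170, a large Hsp70 relative that helps BiP exchange its nucleotide. It stood at 161, 196, 215 and 121 CPM in shTbl1xr1 1 to 4, against 223, 281, 376 and 254 CPM in shNC 1 to 4. The groups did not overlap, though shTbl1xr1 3 and shNC 1 were neighbours. The log2 fold change was -0.71 (SE 0.24, adjusted p = 0.367).

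The other 6 genes grouped with BiP showed no such gap between shTbl1xr1 and shNC. Sdf2l1, a partner of the co-chaperone ERdj3, was at 55.0, 84.8, 50.5 and 20.97 CPM in shTbl1xr1 1 to 4, against 52.4, 52.1, 107 and 56.9 CPM in shNC 1 to 4. Manf, an ER protein that binds BiP and can be secreted, was at 304, 280, 187 and 69.2 CPM in shTbl1xr1 1 to 4, against 231, 210, 246 and 189 CPM in shNC 1 to 4. In both genes shTbl1xr1 4 was lowest by a wide margin. For Manf the shallow pair was above every shNC library and the deeper pair below every one. The co-chaperones Dnajb9 (ERdj4), Dnajb11 (ERdj3) and Dnajc3 (p58IPK) and the Hsp70 relative Hspa13 had log2 fold changes of 0.03, -0.19, -0.22 and -0.21. Of the 8 genes of the BiP group, 1 fold change was above 0 and 7 were below, with a median of -0.21.

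**Figure D2:**
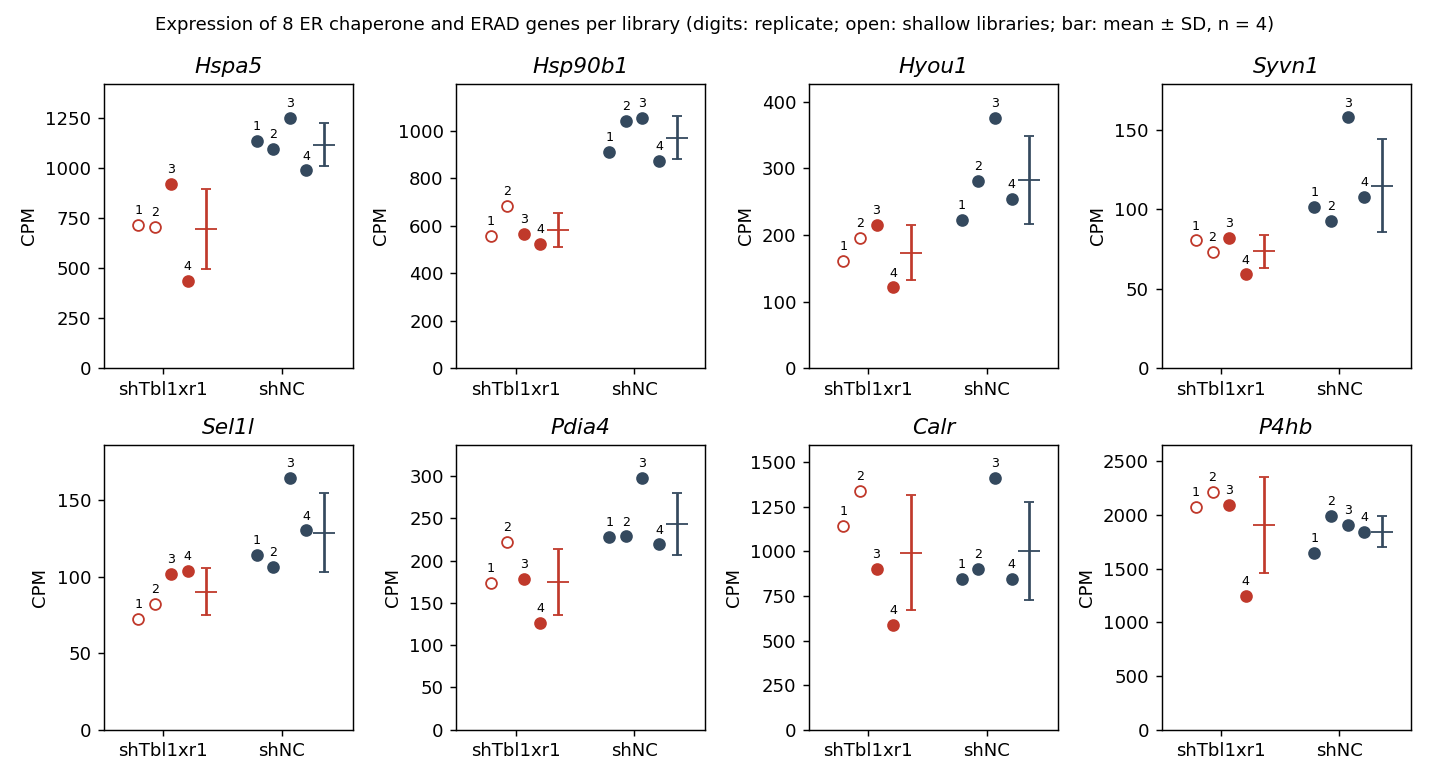
TMM-normalised CPM per library for Hspa5, Hsp90b1, Hyou1, Syvn1, Sel1l, Pdia4, Calr and P4hb, shTbl1xr1 left and shNC right in each panel; digits are replicate numbers, open symbols the 2 shallow libraries, and bars the mean with the SD of 4 libraries. Hspa5, Hsp90b1, Hyou1, Syvn1 and Sel1l show no overlap between groups, while Pdia4, Calr and P4hb do overlap.

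In ERAD, misfolded proteins are pulled back through the membrane and marked for the proteasome, and the ubiquitin ligase HRD1 with its partner SEL1L is its core. Syvn1, the gene of HRD1 (ENSMUSG00000024807.18; chromosome 19, 6046576 to 6053712, plus strand), was at 80.4, 73.1, 81.9 and 59.0 CPM in shTbl1xr1 1 to 4, against 102, 92.5, 158 and 108 CPM in shNC 1 to 4. Sel1l (ENSMUSG00000020964.14; chromosome 12, 91806043 to 91849157, minus strand) was at 72.2, 82.4, 102 and 104 CPM in shTbl1xr1 1 to 4, against 114, 106, 165 and 130 CPM in shNC 1 to 4. Both subunit genes were lower in every shTbl1xr1 library than in any shNC library, Sel1l by a small gap. The log2 fold changes were -0.64 (SE 0.20, adjusted p = 0.345) for Syvn1 and -0.51 (SE 0.20, adjusted p = 0.405) for Sel1l. For Sel1l it was -0.33 (SE 0.19) with the deeper pair alone and -0.74 (SE 0.19) with the shallow pair alone.

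The other ERAD genes did not separate the groups. Derl1, a membrane protein of the retrotranslocation machinery, was at 232, 225, 175 and 150 CPM in shTbl1xr1 1 to 4, against 160, 158, 152 and 152 CPM in shNC 1 to 4. Os9, a lectin that brings glycoproteins to the HRD1 complex, was at 217, 229, 209 and 169 CPM in shTbl1xr1 1 to 4, against 170, 178, 175 and 170 CPM in shNC 1 to 4. For both, 3 shTbl1xr1 libraries were above the whole shNC range and shTbl1xr1 4 just below it, and the log2 fold changes were 0.33 (SE 0.18, adjusted p = 0.472) and 0.25 (SE 0.16, adjusted p = 0.509). Herpud1, a membrane partner of HRD1, was at 135, 168, 337 and 165 CPM in shTbl1xr1 1 to 4, against 167, 161, 255 and 320 CPM in shNC 1 to 4, so both groups were wide. Derl2 and the mannosidase-like Edem1 had log2 fold changes of 0.05 and 0.08. Derl3 was scarce, with 1.001, 5.66, 1.80 and 0.35 CPM in shTbl1xr1 1 to 4, against 0.86, 0.85, 3.32 and 1.46 CPM in shNC 1 to 4, and its fold change of 0.33 had an SE of 0.78. Over the 8 ERAD genes, 5 fold changes were above 0 and 3 below, with a median of 0.06.

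Among the folding enzymes, Pdia4 (ERp72, a protein disulfide isomerase; ENSMUSG00000025823.9; chromosome 6, 47796141 to 47813430, minus strand) had 173, 222, 178 and 127 CPM in shTbl1xr1 1 to 4, against 228, 228, 297 and 219 CPM in shNC 1 to 4. Only shTbl1xr1 2 reached into the shNC range, and the log2 fold change was -0.47 (SE 0.21, adjusted p = 0.426). Creld2, which acts with the disulfide isomerases, had the most negative fold change of the 33 genes and one of the widest spreads. It was at 61.1, 68.6, 50.5 and 20.6 CPM in shTbl1xr1 1 to 4, against 67.2, 59.7, 140.2 and 69.7 CPM in shNC 1 to 4. Its log2 fold change of -0.75 (SE 0.39, adjusted p = 0.453) rested on the low shTbl1xr1 4 and the high shNC 3, and the other 6 libraries lay between 50.5 and 69.7 CPM.

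The remaining folding enzymes overlapped between groups. P4hb, protein disulfide isomerase itself, averaged 1907 ± 447 CPM in shTbl1xr1 and 1844 ± 147 CPM in shNC (SD, n = 4 each), with shTbl1xr1 4 at 1243 CPM and the other 3 shTbl1xr1 libraries between 2071 and 2216 CPM. Pdia3 (ERp57), which forms disulfides in glycoproteins held by calreticulin and calnexin, was at 520, 713, 488 and 367 CPM in shTbl1xr1 1 to 4, against 565, 547, 752 and 507 CPM in shNC 1 to 4. Their log2 fold changes were 0.05 and -0.18, and that of Pdia6 (P5) was -0.09. Ppib, the cyclophilin of the ER lumen, was at 557, 620, 311 and 255 CPM in shTbl1xr1 1 to 4, against 344, 353, 281 and 308 CPM in shNC 1 to 4, high in the shallow pair and near shNC in the deeper pair (log2 fold change 0.44, SE 0.29).

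Calreticulin and calnexin hold newly made glycoproteins while they fold. Calr was at 1145, 1340, 902 and 588 CPM in shTbl1xr1 1 to 4, against 848, 900.3, 1411 and 846 CPM in shNC 1 to 4. Canx was at 347, 408, 320.4 and 310.1 CPM in shTbl1xr1 1 to 4, against 357, 365, 378 and 349 CPM in shNC 1 to 4. Neither separated the groups (log2 fold changes -0.01 and -0.06), and the folding checkpoint enzyme Uggt1 had -0.14. For Calr the shallow pair was above 3 of the 4 shNC libraries and shTbl1xr1 4 was below all 4.

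The translocon carries new chains into the ER. Sec61b, the small beta subunit of its channel, was at 173, 212, 100.5 and 64.2 CPM in shTbl1xr1 1 to 4, against 95.9, 112, 78.0 and 98.5 CPM in shNC 1 to 4. The shallow pair was above every shNC library and shTbl1xr1 4 below every one, so the log2 fold change of 0.52, the highest of the list, had an SE of 0.34 and an adjusted p of 0.522. The channel gene Sec61a1 and the associated Ssr1 had log2 fold changes of -0.08 and 0.08.

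The UPR sensor genes were expressed at low levels and did not separate the groups. Ern1, which encodes IRE1 alpha, was at 20.4, 28.3, 46.8 and 65.6 CPM in shTbl1xr1 1 to 4, against 44.9, 52.6, 62.4 and 52.5 CPM in shNC 1 to 4. Atf6 was at 40.6, 48.5, 73.4 and 74.7 CPM in shTbl1xr1 1 to 4, against 51.9, 65.6, 62.6 and 66.2 CPM in shNC 1 to 4. In both genes the shallow pair was below the whole shNC range. Eif2ak3, the gene of PERK, was at 14.1, 11.2, 39.0 and 19.5 CPM in shTbl1xr1 1 to 4, against 18.7, 23.8, 18.9 and 21.7 CPM in shNC 1 to 4. Their log2 fold changes were -0.39 (SE 0.32), -0.05 and 0.03 (SE 0.34).

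Xbp1 encodes the transcription factor made from the mRNA that IRE1 alpha splices. It was at 326, 313, 182 and 181 CPM in shTbl1xr1 1 to 4, against 248, 226, 214 and 183 CPM in shNC 1 to 4. The shallow pair was above shNC and the deeper pair just under its lower end (log2 fold change 0.20, SE 0.24, adjusted p = 0.728). These tables hold 1 value per gene, so spliced and unspliced Xbp1 mRNA were not separated, and neither were the sensor proteins' activities measured.

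The 33 genes varied in common patterns from library to library. In shTbl1xr1 4, 31 of 33 were below the shNC mean, with a mean deviation of -0.61 on the log2 scale over the list, and 25 of 33 had their lowest value of all 8 libraries there. The most negative deviations in that library were those of Creld2 (-1.94), Manf (-1.65), Sdf2l1 (-1.60), Hspa5 (-1.35) and Hyou1 (-1.20). The mean deviations in shTbl1xr1 1, 2 and 3 were only -0.15, 0.09 and -0.07. In shNC 3, 25 of 33 genes were above the shNC mean and 13 had their highest value of the 8 libraries. Of 113 further ER genes, described below, 78 were below the shNC mean in shTbl1xr1 4 (mean deviation -0.13) and 47 above it in shNC 3. The shares of all genes tested were not computed for these counts. Within a group, the highest library was a median of 1.84 times the lowest in shTbl1xr1 and 1.34 times in shNC; over all genes tested these medians were 2.04 and 1.38. The library lowest for most of these genes, shTbl1xr1 4, had the most Tbl1xr1 of its group and also the largest count total. The part of either was not tested.

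By role, the BiP group deviated by -0.27, 0.01, -0.14 and -1.04 in shTbl1xr1 1 to 4, and the folding enzymes by -0.03, 0.26, -0.23 and -0.83. The translocon genes deviated by 0.44, 0.49, -0.02 and -0.42. The mean of the sensors and Xbp1 ran the other way, at -0.48, -0.40, 0.19 and 0.06. Xbp1 itself did not, at 0.59, 0.53, -0.25 and -0.26. The shallow pair was thus low for the sensors and high for Sec61b and Ssr1, and on average the deeper pair was not. Sec61a1 was at only 0.08 and -0.07 in the shallow pair.

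The deviations of the shallow pair and of the deeper pair ran with transcript length in opposite directions. Across the 33 genes, Spearman's correlation between effective length and the deviation from shNC was -0.54 for the mean of the shallow pair and 0.46 for the mean of the deeper pair; over the 13908 genes it was -0.53 and 0.25. The 13 members under 2000 bases had a median deviation of 0.34 in the shallow pair and -0.42 in the deeper pair, and the 7 members over 4000 bases had -0.33 and 0.03. Roles mixed lengths: the translocon held the short Sec61b and the long Ssr1, the BiP group the short Manf and the long Dnajc3, and the UPR group the short Xbp1 and the long Atf6. These correlations describe genes that share the same libraries. Their part in the results was tested only by removing the length trend from each library, an alternative chosen after the data were seen. With it, Hsp90b1, Hspa5, Syvn1 and Creld2 were lower (beside 5.13% of all genes) and Derl1 higher (beside 10.4%) at an unadjusted p under 0.05, while Hyou1 (log2 fold change -0.49) and Sel1l (-0.27) were not.

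**Figure D3:**
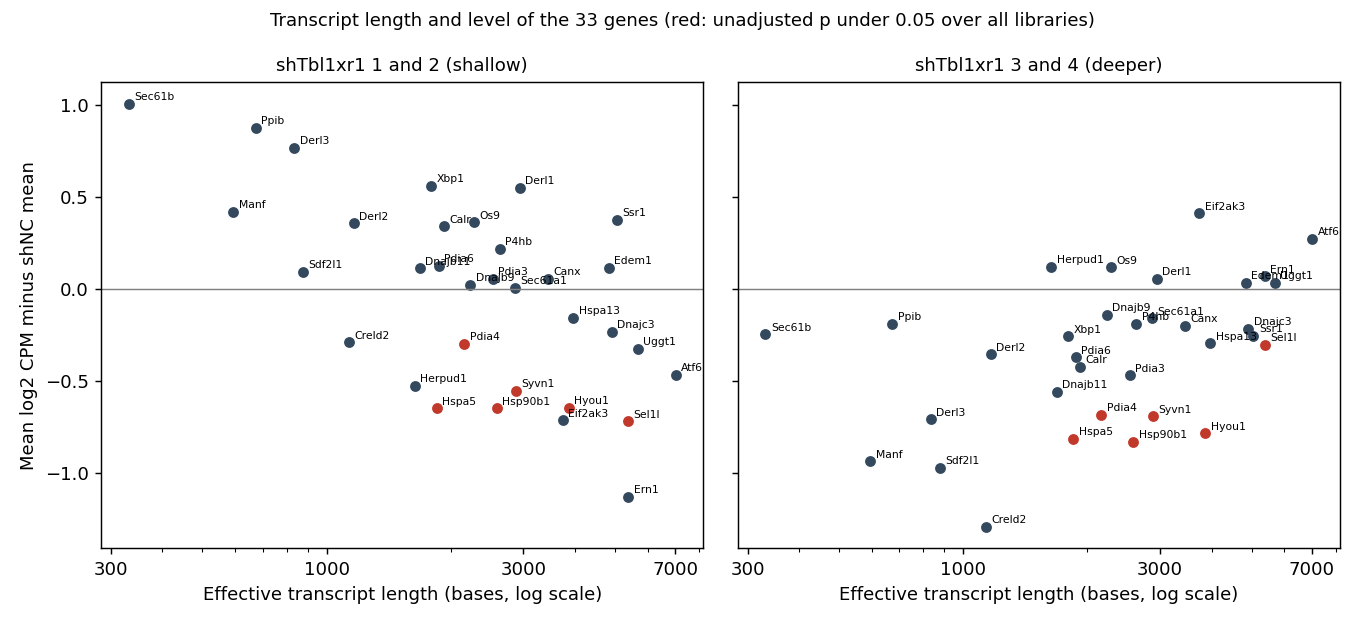
Effective transcript length (bases, log axis) against the mean log2 deviation from shNC for the 33 genes, in the shallow shTbl1xr1 pair on the left and the deeper pair on the right. Short genes lie higher in the shallow pair (Spearman -0.54) and lower in the deeper pair (0.46).

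Split by depth, the shallow pair (shTbl1xr1 1 and 2) and the deeper pair (shTbl1xr1 3 and 4) gave different lists against the same 4 shNC libraries. With the deeper pair alone, 8 members (24.2%, beside 4.62% of all genes) were lower at an unadjusted p under 0.05, namely Creld2, Derl2, Dnajb11, Hsp90b1, Hspa5, Hyou1, Pdia4 and Syvn1. There 14 members were lower and 1, Atf6, was higher without overlap, beside 10.2% and 10.4% of all genes, and the list's median was -0.26. With the shallow pair alone, 7 members were lower and 7 higher after adjustment (21.2% each, beside 21.1% and 21.5% of all genes), which is the share of genes at large. The lower ones were Hspa5, Hsp90b1, Hyou1, Sel1l, Atf6, Ern1 and Eif2ak3, and the higher ones Derl1, Derl2, Os9, Manf, Ppib, Sec61b and Xbp1. The unadjusted count was 3 lower (Hsp90b1, Hyou1 and Syvn1; 9.09%, beside 2.73% of all genes) without shNC 3, in which chaperones were highest. Without shTbl1xr1 4 it was 6 lower and 4 higher, and 11.1% of all genes were then lower and 15.5% higher.

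Scaling mattered to the list's balance. With libraries scaled by total count alone, 2 members had a fold change above 0 and 31 below, against 12 and 21 in the TMM scaling, and the median was -0.40 beside -0.27 over all genes. Of all counts, the 33 genes took 0.716%, 0.736%, 1.08% and 0.713% in shTbl1xr1 1 to 4, against 1.03%, 1.14%, 1.33% and 1.08% in shNC 1 to 4. That share is without TMM scaling and includes the mitochondrial reads in the total.

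Levels were compared between genes in TPM, which divides counts by transcript length and scales each library to the same sum. In shTbl1xr1 the order began with P4hb at 671, Ppib at 543, Calr at 451, Hspa5 at 343 and Sec61b at 337 TPM, and Hsp90b1 stood at 212. In shNC it began with P4hb at 908, Hspa5 at 774, Calr at 679, Ppib at 612 and Hsp90b1 at 486 TPM. BiP itself was at 207, 171, 674 and 322 TPM in shTbl1xr1 1 to 4, against 664, 794, 926 and 713 TPM in shNC 1 to 4, so that on this scale shTbl1xr1 3 lay within the shNC range. In TPM the groups also overlapped for Hyou1, through shTbl1xr1 3, and for Sel1l, through shTbl1xr1 3 and 4. They did not overlap for Hsp90b1 and Syvn1. Hsp90b1 was at 137, 148, 293 and 272 TPM in shTbl1xr1 1 to 4, against 412 to 562 TPM in shNC. Its shallow pair was thus well below its deeper pair on this scale. The rank of Hspa5 in the list was 6 in both shallow libraries, 2 in shTbl1xr1 3 and 4 in shTbl1xr1 4. It was 3 in shNC 3 and 2 in the other 3 shNC libraries. Without the shallow pair the shTbl1xr1 order began with P4hb at 853, Ppib at 563, Calr at 521 and Hspa5 at 498 TPM. The sensors were scarce in both groups, with Ern1 at 8.12 and 13.4, Atf6 at 8.98 and 11.4 and Eif2ak3 at 6.18 and 7.29 TPM in shTbl1xr1 and shNC, and Derl3 was lowest at 1.77 and 3.01. TPM is a share of each library, so these levels include the difference in mitochondrial reads.

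Of the 11 genes with an ERSE or ERSE-II match in the promoter window, 10 had a log2 fold change below 0, with a median of -0.19, and of the 16 genes with a window and no match, 6 did, with a median of 0.04. By total count scaling these became 11 of 11 (median -0.52) and 14 of 16 (median -0.28). With the shallow pair alone they were 6 of 11 (median -0.22) and 5 of 16 (median 0.09). With the deeper pair alone they were 10 of 11 (median -0.57) and 10 of 16 (median -0.21). With voom and sample weights, run as an alternative, they were 7 of 11 (median -0.18) and 6 of 16 (median 0.07). By edgeR with TMM scaling, 49.4% of all genes tested were below 0. Calr, Canx and Pdia6, each with a match, were there close to 0, at -0.01, -0.06 and -0.09. At an unadjusted p under 0.05 by edgeR, 3 of the 11 genes with a match and 2 of the 16 without were lower, beside 3.71% of all genes. Sel1l, which separated the groups, and Pdia4 had no match in their windows, and Calr, with a match, had overlapping groups. A match says only that these letters are there, and factor binding was not measured.

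The wider ER was followed through 118 further genes in 5 groups, of which 113 passed the filter on low counts. None passed adjustment by edgeR or DESeq2. At an unadjusted p under 0.05, 11 were higher (9.73%, beside 7.9% of all genes) and 1 lower (0.885%, beside 3.71%). Fold changes were above 0 for 68 and below for 45, with a median of 0.07. That balance turned with the libraries and the scaling: it was 43 above and 70 below (median -0.05) with the deeper pair alone, 47 and 66 with 1 surrogate variable, 54 and 59 with upper quartile scaling, and 25 and 88 with scaling by library size alone. Groups did not overlap for 6 higher (5.31%, beside 3.88% of all genes) and 3 lower (2.65%, beside 3.37%).

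Among luminal folding genes outside the list, the peptidyl-prolyl isomerase Fkbp11 was at 50.8, 68.8, 41.9 and 24.4 CPM in shTbl1xr1 1 to 4, against 22.6, 28.8, 23.997 and 18.5 CPM in shNC 1 to 4. Only shTbl1xr1 4 lay within the shNC range (log2 fold change 0.98, SE 0.29, adjusted p = 0.329). Its relatives Fkbp2 and Fkbp14 had log2 fold changes of 0.91 (SE 0.42) and -0.58 (SE 0.22), and for Fkbp14 the groups did not overlap. Fkbp2 was at 154 and 171 CPM in the shallow pair. In the deeper pair it was at 58.2 and 44.8 CPM, within the shNC range of 40.5 to 70.8 CPM. Among redox genes, Sumf2, Prdx4 and Txndc11 had 0.54, 0.62 and 0.23, and among entry genes the oligosaccharyltransferase subunit Dad1, the translocation factor Sec63 and the signal peptidase subunit Sec11a had 0.81, -0.31 and 0.48. Txndc11 was higher and Sec63 lower without overlap between groups. Among further ERAD genes, the ubiquitin-conjugating enzyme Ube2j2 was higher in every shTbl1xr1 library than in any shNC library (log2 fold change 0.77, adjusted p = 0.336), as was Fam8a1, an HRD1 complex member (0.32), and Edem2 had 0.68. With the shallow pair alone, Fkbp11, Fkbp2, Sumf2, Prdx4, Dad1, Sec11a, Ube2j2 and Edem2 were higher after adjustment, beside 21.5% of all genes. Fkbp14 and Sec63 were lower there, beside 21.1%.

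Among UPR signalling genes, Trib3, a pseudokinase induced downstream of PERK, was at 2.25, 1.52, 10.8 and 2.28 CPM in shTbl1xr1 1 to 4, against 0.90, 0.42, 1.33 and 1.43 CPM in shNC 1 to 4. Every shTbl1xr1 library was above every shNC library and shTbl1xr1 3 stood far above the rest (log2 fold change 2.09, SE 0.65, adjusted p = 0.345). Bbc3, the apoptosis gene of PUMA, also did not overlap (0.69), and Bak1 had 0.43. Atf4, the transcription factor translated under PERK, averaged 66.1 ± 8.92 CPM in shTbl1xr1 and 66.4 ± 6.53 CPM in shNC (SD, n = 4 each). Ddit3 (CHOP) averaged 4.65 ± 3.53 CPM in shTbl1xr1 and 6.12 ± 1.73 CPM in shNC (SD, n = 4 each). Neither differed beyond its spread.

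Cell makeup was read from marker lists beside these values. Summed hepatocyte markers ran from 51687 to 84139 CPM in shTbl1xr1 and from 53534 to 70333 CPM in shNC. Macrophage markers ran from 190 to 549 CPM in shTbl1xr1 and from 434 to 713 CPM in shNC, lowest in the shallow pair. The shallow pair was also lowest for endothelial markers (150 to 285 CPM in shTbl1xr1, 258 to 311 CPM in shNC) and stellate cell markers (118 to 506 CPM in shTbl1xr1, 263 to 446 CPM in shNC). Cholangiocyte markers ran from 37.2 to 237 CPM in shTbl1xr1 and from 31.8 to 118 CPM in shNC, and red blood cell markers from 310 to 683 CPM in shTbl1xr1 and from 345 to 985 CPM in shNC. Lymphocyte markers (2.21 to 4.51 CPM in shTbl1xr1, 3.52 to 5.35 CPM in shNC) and neutrophil markers (2.38 to 16.6 CPM in shTbl1xr1, 3.78 to 9.37 CPM in shNC) were scarce. Plasma cells, which hold much ER, had 3 of 7 markers above the low count filter, summing to 5.44 to 9.64 CPM in shTbl1xr1 and 4.96 to 6.81 CPM in shNC. No marker list had a member past the adjusted threshold, and no marker of the lists was at 0 in all 8 libraries. The groups did not overlap for 3 markers of all the lists, Hgd higher and Dcn and Cd4 lower in shTbl1xr1. Of all genes tested, 3.88% were higher and 3.37% lower without overlap, and whether the markers exceed these shares was not tested. The hepatocyte gene Hgd ran from 533 to 828 CPM in shTbl1xr1 and from 353 to 493 CPM in shNC, the stellate cell gene Dcn from 38.3 to 92.2 CPM in shTbl1xr1 and from 97.2 to 125 CPM in shNC, and the lymphocyte gene Cd4 from 0.52 to 1.24 CPM in shTbl1xr1 and from 1.57 to 2.85 CPM in shNC. The part of cell makeup in the chaperone values was not tested.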

How the data were processed

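Per the labels' protocols, TRIzol was used to extract RNA from 8 liver samples, and an MGIEasy kit to build the libraries. The authors deposited an expected count, the fragments estimated per gene, for 55401 genes per library, with TPM and FPKM, scaled for length and library total, beside it, per the file headers. Tools in the submitters' processing notes are STAR, RSEM and DESeq2 1.30.1, with the build mm10. Strand setting: not given in the sources used here. Fragments that fit several genes are divided among them by RSEM.

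Expected counts were rounded, filtered with filterByExpr (13908 genes left), scaled by TMM and compared by the quasi-likelihood F test of edgeR 4.0.16 (R 4.3.3), robust and without covariates, with Benjamini-Hochberg adjustment over all genes tested and a threshold of 0.05. Printed CPM are TMM-normalised. Log2 deviations had a prior count of 2 added. The deposited TPM were used as they are, for levels between genes, and the FPKM were not used. Tbl1xr1 was also compared by an exact permutation test over the libraries on log2 of CPM plus 1. Alternatives used DESeq2 1.42.0, voom in limma 3.58.1 and 1 surrogate variable from sva 3.50.0. The edgeR test was also run on counts simulated from the shNC means and the real library totals, with 200 changed genes. Those counts held no length trend, so that run cannot show how the test deals with one.

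Symbols and coordinates came from GENCODE M21 on GRCm38, which matched 55141 of the identifiers without their version. Promoters came from RefSeq on GRCm38.p6. The member genes, the 118 further ER genes and the marker lists were chosen with earlier results of these data known. Given per library were Hspa5, Hsp90b1, Calr, Canx, Pdia3, P4hb, Xbp1, Atf6, Ern1, Eif2ak3 and the 10 members with the smallest p; other members shown so were chosen after their values were seen. Further ER genes were named as the 3 with the smallest p per group, plus Atf4 and Ddit3. The table has 2 entries for Ddit3, of which the one listed at 0 in all libraries was not used.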

Additional observations from a re-analysis of the deposited data

Results flagged for a closer look

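Among the 66 sets of 4 values formed by the 33 genes in the 2 groups, 8 had a library at one end whose gap to the next was, as a share of the whole range, over Dixon's critical value for 4 values. Chance gives this in about 1 in 20 separate sets, but these sets share the same libraries, so the 8 are not separate events. The rate over all genes tested was not computed. Of the 8, 5 lay in shNC 3, each the highest of its group. There Calr was at 1411 CPM, Pdia4 at 297, Creld2 at 140.2, Sdf2l1 at 107 and Dnajb9 at 85.6 CPM. The set of Hspa13 stood out through shNC 2 at 78.6 CPM, also the highest of its group. In shTbl1xr1, P4hb was lowest in shTbl1xr1 4 at 1243 CPM and Herpud1 highest in shTbl1xr1 3 at 337 CPM. All 5 genes that stood out in shNC 3 are chaperones, co-chaperones or folding enzymes or act with them. Calr, Pdia4, Creld2, Sdf2l1 and Dnajb9 were among the genes whose groups overlapped.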

How the results depend on the processing

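Over all genes, 7 passed adjustment. Scaling by library size alone gave 4, no filter 13, DESeq2 291, voom with sample weights 32, 1 surrogate variable 44, the shallow shTbl1xr1 pair only 6094 and the length trend removed 34. With 1 library left out the count ran from 0 to 34. It was 0 without shNC 1, 2 or 4 by edgeR (at an unadjusted p under 0.05, 631 to 844 genes were higher and 292 to 372 lower), it was 2 without shNC 3 or shTbl1xr1 1, 3 without shTbl1xr1 2 or 3, and 34 without shTbl1xr1 4. Of the members, 1 passed with DESeq2 and 14 with the shallow pair only, and 0 in every other setting run. Of the further ER genes, 49 passed with the shallow pair only. Of these, 36 were higher (31.9%, beside 21.5% of all genes) and 13 lower (11.5%, beside 21.1%). Scaling by library size alone moved the member median to -0.40 and that of the further ER genes to -0.25. The Tbl1xr1 log2 fold change passed adjustment with DESeq2 (-2.13), 1 surrogate variable (-1.56) and the shallow pair only (-3.88).

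Hspa5, Hsp90b1, Hyou1, Syvn1, Sel1l, Pdia4 and Creld2 kept a log2 fold change below 0 in every setting run. Others crossed 0, and the cause was not tested. With the length trend removed they were Hspa13 0.010, Dnajc3 0.055, Canx 0.13, Uggt1 0.13, Sec61a1 0.051, Sec61b -0.044, Derl2 -0.15, Derl3 -0.049 and Atf6 0.20. With scaling by library size alone they were Dnajb9 -0.26, P4hb -0.29, Ssr1 -0.28, Derl1 -0.024, Derl2 -0.33, Derl3 -0.11, Edem1 -0.23, Os9 -0.072, Eif2ak3 -0.14 and Xbp1 -0.19. With upper quartile scaling they were Dnajb9 -0.038, P4hb -0.031, Ssr1 -0.0018, Derl2 -0.041, Edem1 -0.00085 and Eif2ak3 -0.024. With the replicate block they were Dnajb9 -0.055, Derl3 -0.073 and Eif2ak3 -0.14. With the shallow shTbl1xr1 pair only they were Dnajb11 0.10, Sdf2l1 0.054, Manf 0.41, Calr 0.31, Canx 0.057, Pdia3 0.055, Pdia6 0.14 and Eif2ak3 -0.72. With the deeper libraries only they were Uggt1 0.023, P4hb -0.14, Ppib -0.19, Sec61b -0.22, Ssr1 -0.26, Derl2 -0.35, Derl3 -0.62, Herpud1 0.15, Atf6 0.26, Ern1 0.078 and Xbp1 -0.27. With voom and sample weights they were Manf 0.17, Calr 0.26, Canx 0.015, Pdia3 0.019, Pdia6 0.076 and Eif2ak3 -0.20. With 1 surrogate variable they were Uggt1 0.027, P4hb -0.11, Ppib -0.11, Sec61b -0.14, Ssr1 -0.23, Derl2 -0.30, Derl3 -0.46, Herpud1 0.14, Atf6 0.23, Ern1 0.016 and Xbp1 -0.21. With DESeq2, or its size factors in edgeR, Calr was 0.010. With 1 library left out, members that crossed 0 ran Dnajb9 from -0.19 to 0.23, Manf from -0.29 to 0.23, Calr from -0.19 to 0.20, P4hb from -0.033 to 0.21, Pdia6 from -0.27 to 0.040, Sec61a1 from -0.14 to 0.018, Ssr1 from -0.030 to 0.21, Derl2 from -0.11 to 0.19, Derl3 from -0.63 to 0.96, Herpud1 from -0.54 to 0.048, Atf6 from -0.18 to 0.093 and Eif2ak3 from -0.46 to 0.23.

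Whether the replicate numbers pair the libraries is not stated in the labels, and 4 numbers are too few to settle it. Deviations of same-numbered libraries correlated at 0.38, -0.07, 0.30 and 0.12, and 2 of 4 numbers correlated best with themselves. With the replicate block 5 genes and 0 members passed adjustment, and at an unadjusted p under 0.05, 5 members were lower (beside 5.22% of all genes). Depth limits the shallow pair, and Derl3, Trib3 and Ddit3 rest on few counts in all libraries. Whole liver values cannot place a transcript in hepatocytes, and neither protein levels nor Xbp1 splicing were measured.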
